A study of Saccharomyces cerevisiae with 11 samples.

Results

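GCN4 and 38 genes of amino acid synthesis, grouped as genes under Gcn4, were followed in yeast cells. The cells made a nuclear huntingtin fragment of normal or expanded length. Whether Gcn4 acts on each of the 38 genes was not tested. The rule gives the 39 genes by systematic name and uses no measured value, though the list was drawn up with earlier results of these data known. They made up 39 of the 7126 genes of the count table. Besides GCN4 there were 7 genes of histidine, 9 of arginine, 5 of tryptophan, 6 of the aromatic core, 4 of threonine and isoleucine, 4 of serine and 3 of glutamine and asparagine synthesis. All 39 were among the 6321 genes that passed the filter on low counts.

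The 11 libraries came from Saccharomyces cerevisiae cultures of the W303 background that carried an integrated, galactose-driven, GFP-tagged Htt fragment with a nuclear localization signal. Htt-25Q-NLS and Htt-103Q-NLS cells were different integrant strains, so the length of the glutamine tract and the strain cannot be told apart. Each strain held a low-copy CEN plasmid with a HIS marker, either empty vector (V) or a plasmid with SLX5, which encodes a subunit of a SUMO-targeted ubiquitin ligase. Cultures are named by strain and plasmid. Clones a and b gave 2 cultures of Htt-25Q-NLS [V], and clones a to c gave 3 each of the groups Htt-103Q-NLS [V], Htt-25Q-NLS [SLX5] and Htt-103Q-NLS [SLX5]. All were grown in synthetic raffinose medium at 25 °C and received galactose at 2% for 4 h before harvest. A further Htt-25Q-NLS [V] library, set aside by the authors for its rRNA content, was not used here.

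Gcn4 is the transcriptional activator of general amino acid control in yeast. When an amino acid runs short, uncharged tRNA activates the kinase Gcn2, which phosphorylates eIF2, and translation of GCN4 mRNA then rises because ribosomes pass its short upstream reading frames. Gcn4 protein binds TGACTCA or a close relative of it in the promoters of biosynthetic genes. Since that control is largely translational, the GCN4 transcript need not follow Gcn4 activity.

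The heptamer TGACTCA was looked for on both strands, in the window from 250 bases before to 50 bases after each start codon. It was found in 14 of the 39 genes (35.9%), against 164 of 6001 protein-coding genes (2.73%). The 14 genes were HIS1, HIS4, HIS5, HIS7, ARG4, ARG56, ARG7, ARG8, TRP2, TRP3, ARO1, ILV6, ASN1 and ASN2. Over 500 bases before the start codon, 20 of 39 (51.3%) and 240 of 6000 (4.00%) held it, among the further genes ARG1, ARG3, CPA1, ARO4 and THR4. The 19 others lacked these letters in this stretch, which says nothing on whether the factor binds there. The sequences printed here are from the RefSeq R64 assembly of S288C, not from the W303 cells, and are written 5′ to 3′ along the strand of the gene. For 8 genes on which the results turn, the heptamer is shown in capitals with 10 bases on each side. It reads TGAGTCA where the match lies on the other strand, as in HIS7.
HIS7 (chrII:716680-716706, minus strand): aaaaaaaaatTGAGTCAtatcgtagct
ARG1 (chrXV:218856-218882, plus strand): gattttttagTGACTCAtgtcgcattt
ARG56 (chrV:295177-295203, plus strand): cttatccgaaTGACTCAgtctacatca
ARG8 (chrXV:58569-58595, plus strand): gctcgctatgTGACTCActtaaagtac
TRP2 (chrV:337777-337803, plus strand): agtgatttgcTGACTCAttacgatttt
TRP3 (chrXI:38260-38286, minus strand): aatggctcgtTGACTCAttctaatcta
ASN1 (chrXVI:822383-822409, plus strand): atgtaacattTGACTCAttctgtaaac
ASN2 (chrVII:739737-739763, plus strand): ttcttagcatTGACTCAtggcaagatt

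SER3, which showed the widest change of the 39 genes between the Htt lengths, had no TGACTCA in 500 bases. Its window is shown whole because all of it lies within SRG1, a noncoding RNA gene on the same strand (chrV:322212-322762) that shares 77 bases with the SER3 reading frame and is known to repress SER3 when transcribed. The ARG8 window is shown beside it, with the heptamer in capitals, since ARG8 was lower with plasmid-borne SLX5.
SER3 (chrV:322436-322735, plus strand): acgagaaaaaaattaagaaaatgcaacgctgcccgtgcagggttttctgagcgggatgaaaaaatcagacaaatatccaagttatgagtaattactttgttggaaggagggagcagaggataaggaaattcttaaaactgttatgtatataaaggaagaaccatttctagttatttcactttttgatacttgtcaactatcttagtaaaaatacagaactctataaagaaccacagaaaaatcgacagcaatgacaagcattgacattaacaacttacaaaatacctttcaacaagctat
ARG8 (chrXV:58509-58808, plus strand): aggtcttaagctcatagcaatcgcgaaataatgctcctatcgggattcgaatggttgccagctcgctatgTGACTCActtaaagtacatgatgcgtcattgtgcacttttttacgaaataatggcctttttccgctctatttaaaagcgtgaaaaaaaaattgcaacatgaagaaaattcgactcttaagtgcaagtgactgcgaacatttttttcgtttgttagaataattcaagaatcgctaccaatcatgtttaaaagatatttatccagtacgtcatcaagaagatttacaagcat

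Library totals ran from 19942070 to 29440801 estimated counts, and the 39 genes took 1.37% to 1.70% of them. The SLX5 transcript stood at 50.1 to 99.6 counts-per-million (CPM, scaled by TMM) in the 5 vector libraries and at 494 to 1216 CPM in the 6 plasmid libraries. GAL1, which answers to galactose, stood at 7226 to 8897 CPM in the 5 Htt-25Q-NLS libraries and at 1626 to 4419 CPM in the 6 Htt-103Q-NLS libraries. Reads of rRNA made up 1.02% to 2.40% of the 4 clone a libraries and 0.254% to 0.958% of the 7 others. The part of the GAL1 and rRNA differences in the results was not tested. In all tests a gene was called where its adjusted p in edgeR's quasi-likelihood test, over all 6321 genes, was under 0.05. The labels give the cultures of a group different clone letters, and the p-values measure the spread between these cultures.

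Levels of the members, compared per length in TPM (transcripts scaled to a common sum per library), spanned a wide range. GLN1, the glutamine synthetase gene, came first with a mean of 1845 TPM over the 11 libraries (1389 to 2371). HIS3 followed at 1280 TPM (886 to 1653) and GCN4 itself at 1118 TPM (1010 to 1289). The HIS3 level can include reads from the HIS marker of the plasmids. The ranges of HIS3 and GCN4 overlapped, and that of HIS3 also overlapped that of GLN1. ASN1, an asparagine synthetase gene, was next at 449 TPM. The low end was held by ARG56 at 25.3 TPM, ARG2 at 15.9 TPM and ARG3 at 10.3 TPM, all of arginine synthesis.

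**Figure D1:**
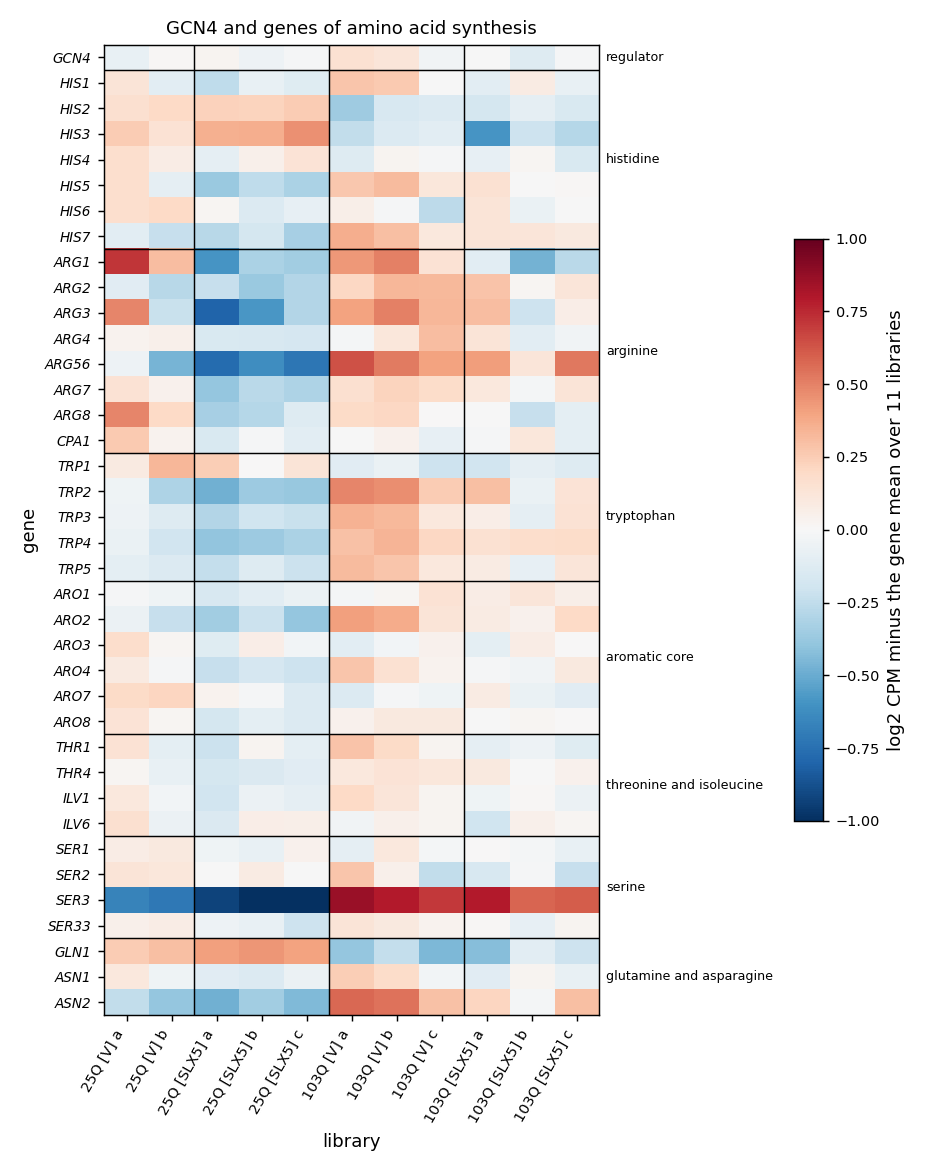
Heat map of the genes (rows, by pathway) in the 11 libraries (columns, by group). Colour is the log2 CPM of a gene minus its mean over the 11 libraries, with the scale ending at -1 and 1. SER3 is above its mean in all 6 Htt-103Q-NLS libraries, GLN1 and HIS3 are below theirs there, and the arginine rows have their lowest medians in Htt-25Q-NLS [SLX5].

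Htt-103Q-NLS against Htt-25Q-NLS, with empty vector, asked how the longer fragment goes with expression of these genes. Of the 39, 11 were higher, 5 were lower and 23 did not pass the test. Among the rises were SER3, ASN2, ARG56, TRP2, ARG2, ARO2, HIS7, TRP4, TRP5 and TRP3, and the falls were GLN1, HIS2, HIS3, TRP1 and ARO7. The 41.0% of members called compares with 56.8% of all genes tested. Higher calls were 28.2% of the members and 27.3% of all genes, and lower calls 12.8% of the members and 29.5% of all genes. The median log2 fold change was 0.10 over the members and −0.02 over all genes, and 25 members had a positive and 14 a negative value.

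With plasmid-borne SLX5 in both strains, the same comparison rests on 6 other cultures. Here 18 members were higher and 4 lower, 56.4% in all, against 53.5% of all genes (26.9% higher and 26.6% lower). The median log2 fold change was 0.14 over the members and −0.01 over all genes. All 11 genes higher with vector were higher again, which is 100% of the first list and 61.1% of the second. Over all genes, 1414 were higher in both, or 82.0% of the 1725 higher with vector and 83.3% of the 1698 higher with SLX5. Of the 5 lower with vector, 4 were lower again, ARO7 being the exception. Among all genes, 1442 were lower in both, or 77.4% of the 1864 lower with vector and 85.8% of the 1681 lower with SLX5. ARG3, ARG7, ARO1, ARO4, ARO8, HIS5 and THR4 passed only among SLX5 cultures, but no member passed the test of the difference between these comparisons, which is given with the interaction.

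GCN4 (YEL009C) mRNA was not called in either comparison. It was counted at 1152 and 1224 CPM in Htt-25Q-NLS [V] and at 1349, 1314 and 1181 CPM in Htt-103Q-NLS [V]. With SLX5 it was at 1234, 1172 and 1203 CPM in Htt-25Q-NLS and 1207, 1108 and 1201 CPM in Htt-103Q-NLS cells. The groups overlapped in both settings. The log2 fold change with the longer fragment was 0.11 ± 0.08 (SE, adjusted p = 0.248) with vector and −0.04 ± 0.07 (adjusted p = 0.666) with SLX5.

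The serine genes turned on 1 member. SER3 and SER33 encode isozymes of 3-phosphoglycerate dehydrogenase, the entry step of serine synthesis from glycolysis. SER3 (YER081W) stood at 85.7 and 82.7 CPM in Htt-25Q-NLS [V] and at 248, 236 and 221 CPM in Htt-103Q-NLS [V]. In SLX5 cultures it was at 71.6, 67.3 and 66.4 CPM in Htt-25Q-NLS and 235, 203 and 207 CPM in Htt-103Q-NLS cells. Every Htt-103Q-NLS library was thus more than 100 CPM above every Htt-25Q-NLS library. The log2 fold changes were 1.48 ± 0.09 (adjusted p = 2.2e-06) with vector and 1.65 ± 0.08 (adjusted p = 2.6e-07) with SLX5.

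SER33 (YIL074C) stayed within 61.1 to 77.0 CPM over the 11 libraries and was not called (0.03 ± 0.07 with vector, 0.09 ± 0.06 with SLX5). The per-length ratio of SER3 to SER33 was 1.14 ± 0.04 (SD, n = 2) in Htt-25Q-NLS [V] and 1.05 ± 0.04 (n = 3) in Htt-25Q-NLS [SLX5]. It was 3.13 ± 0.08 (n = 3) in Htt-103Q-NLS [V] and 3.08 ± 0.22 (n = 3) in Htt-103Q-NLS [SLX5]. The reading frames were 82.4% identical and shared no stretch of 100 bases, although shorter reads could still be split between them. SER1, the aminotransferase, and SER2, the phosphatase that ends the pathway, did not pass in either comparison (adjusted p = 0.251 to 0.921).

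SRG1, the RNA across the SER3 promoter, is no member and was looked up after the SER3 values were seen. It stood at 13.1 and 13.6 CPM in Htt-25Q-NLS [V] and at 20.8, 21.9 and 20.4 CPM in Htt-103Q-NLS [V]. With SLX5 it was at 13.0 to 14.1 CPM in Htt-25Q-NLS and 18.4 to 24.2 CPM in Htt-103Q-NLS cells, so that it was higher together with SER3 in both settings. The log2 fold changes were 0.65 ± 0.12 (adjusted p = 9.8e-04) and 0.69 ± 0.11 (adjusted p = 3.8e-04). Both genes lie on the plus strand, so reads in the 77 shared bases can go to either gene. Whether the counting used strand is not given in the sources used here, and it would not part them. SER3 reads from just before its start codon also fall within SRG1. Their part in the SRG1 values was not tested.

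In glutamine and asparagine synthesis the abundant GLN1 was lower and 1 of the asparagine synthetase genes higher. GLN1 (YPR035W) was counted at 3305 and 3414 CPM in Htt-25Q-NLS [V] and at 2117, 2352 and 2031 CPM in Htt-103Q-NLS [V]. In SLX5 cultures it was at 3675, 3754 and 3650 CPM in Htt-25Q-NLS and 2063, 2572 and 2397 CPM in Htt-103Q-NLS cells. No Htt-103Q-NLS library reached the lowest Htt-25Q-NLS library. The transcript fell by 0.63 ± 0.09 on the log2 scale with vector (adjusted p = 2.4e-04) and by 0.66 ± 0.09 with SLX5 (adjusted p = 1.3e-04).

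ASN1 and ASN2 encode 2 asparagine synthetases and both had TGACTCA in the promoter window. ASN2 (YGR124W) stood at 637 and 578 CPM in Htt-25Q-NLS [V] and at 1126, 1102 and 926 CPM in Htt-103Q-NLS [V]. With SLX5 it stood at 541, 595 and 555 CPM in Htt-25Q-NLS and 875, 744 and 931 CPM in Htt-103Q-NLS cells, without overlap. It was higher by 0.79 ± 0.11 (adjusted p = 1.8e-04) and 0.59 ± 0.10 (adjusted p = 5.4e-04) on the log2 scale.

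ASN1 (YPR145W) was at 1219 and 1100 CPM in Htt-25Q-NLS [V] and at 1344, 1287 and 1110 CPM in Htt-103Q-NLS [V], with overlap between the groups. It was at 1029 to 1088 CPM in Htt-25Q-NLS [SLX5] and 1049 to 1153 CPM in Htt-103Q-NLS [SLX5], and was not called (adjusted p = 0.338 and 0.604). Per length, ASN1 thus exceeded ASN2 by a ratio of 1.91 ± 0.01 in Htt-25Q-NLS [V] (n = 2) and 1.87 ± 0.12 in Htt-25Q-NLS [SLX5] (n = 3). The ratio was 1.19 ± 0.02 in Htt-103Q-NLS [V] and 1.30 ± 0.22 in Htt-103Q-NLS [SLX5] (n = 3 each). The reading frames were 81.0% identical, with no shared stretch of 100 bases.

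**Figure D2:**
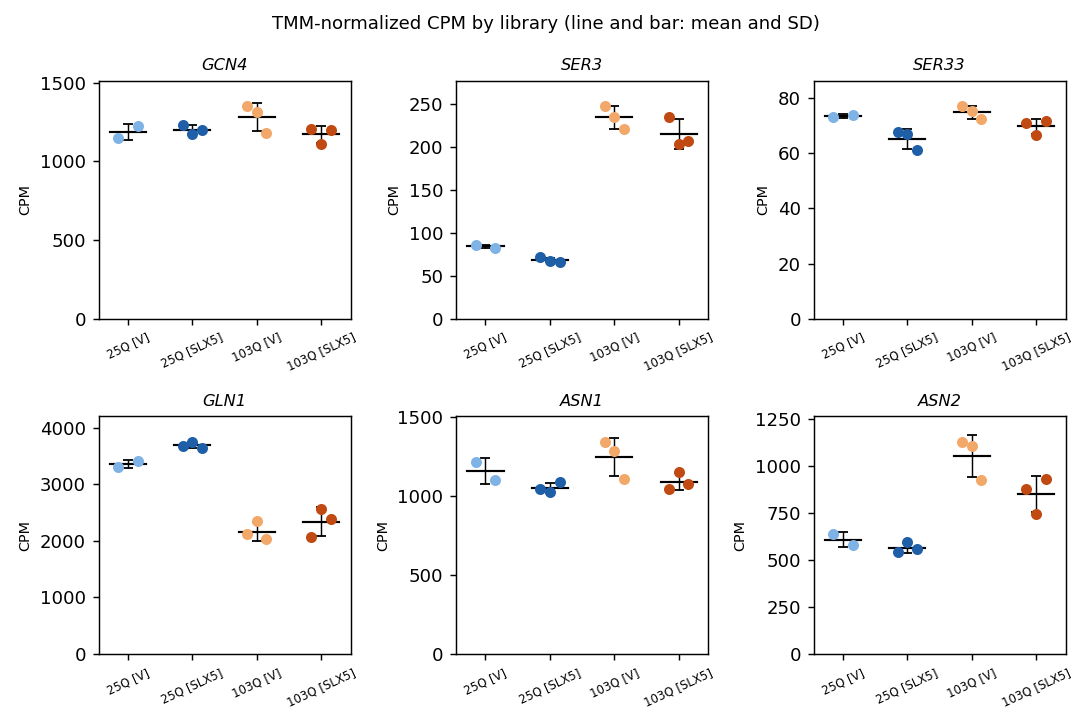
TMM-normalized CPM (y axis from 0) of GCN4, SER3, SER33, GLN1, ASN1 and ASN2 in each library (points), by group (x axis), with the group mean and SD (2 libraries in Htt-25Q-NLS [V], 3 in the others). SER3 and ASN2 sit higher and GLN1 lower in all Htt-103Q-NLS libraries, while GCN4, SER33 and ASN1 overlap between the lengths.

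In tryptophan synthesis all 5 genes were called in both comparisons, where 56.8% and 53.5% of all genes were. TRP2, TRP3, TRP4 and TRP5 were higher in both comparisons, and TRP1 was lower in both. TRP2 and TRP3 encode the subunits of anthranilate synthase, which takes chorismate into the pathway, with a further activity of indoleglycerol phosphate synthase on Trp3. TRP2 (YER090W) stood at 207 and 173 CPM in Htt-25Q-NLS [V] and at 300.4, 296 and 255 CPM in Htt-103Q-NLS [V] (0.58 ± 0.12, adjusted p = 0.00164). With SLX5 it was at 154, 166 and 165 CPM against 264, 204 and 236 CPM (0.54 ± 0.10, adjusted p = 0.00137). TRP4 (YDR354W), the anthranilate phosphoribosyltransferase gene, stood at 178 and 163 CPM in Htt-25Q-NLS [V] and at 228, 236 and 215 CPM in Htt-103Q-NLS [V]. With SLX5 the TRP4 values were 142, 145 and 150 CPM against 207, 210 and 212 CPM. In neither setting did the TRP4 groups overlap, with log2 fold changes of 0.41 ± 0.07 (adjusted p = 5.5e-04) and 0.53 ± 0.06 (adjusted p = 7.3e-05).

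TRP3 and TRP5, the latter encoding the tryptophan synthase of the last step, were higher by 0.35 ± 0.09 and 0.35 ± 0.09 with vector (adjusted p = 0.00711 and 0.00443). With SLX5 they were higher by 0.28 ± 0.08 and 0.24 ± 0.08 (adjusted p = 0.0135 and 0.0205). TRP1, the phosphoribosylanthranilate isomerase gene, is mutant in W303, so its transcript is that of a marker locus. It stood at 26.5 and 31.3 CPM in Htt-25Q-NLS [V] and at 23.0, 23.8 and 21.6 CPM in Htt-103Q-NLS [V]. In SLX5 cultures it was at 25.0 to 29.5 CPM against 21.8 to 23.3 CPM. It fell by 0.34 ± 0.10 (adjusted p = 0.0134) and by 0.27 ± 0.09 (adjusted p = 0.0276) on the log2 scale. With a library left out, TRP3, TRP5 and TRP1 could miss the call with SLX5 (adjusted p up to 0.0584, 0.0782 and 0.125), all of them without clone a of Htt-25Q-NLS [SLX5].

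The aromatic core makes chorismate and carries it on to phenylalanine and tyrosine, and had calls for 2 of 6 genes with vector and 4 of 6 with SLX5, where 56.8% and 53.5% of all genes were called. ARO2 (YGL148W), the chorismate synthase gene at the branch point before tryptophan, was higher in both comparisons. It stood at 518 and 462 CPM in Htt-25Q-NLS [V] and at 718, 701 and 593 CPM in Htt-103Q-NLS [V] (0.45 ± 0.10, adjusted p = 0.00223). With SLX5 it was at 413 to 466 CPM in Htt-25Q-NLS and 558 to 620.0 CPM in Htt-103Q-NLS cells (0.43 ± 0.09, adjusted p = 0.00177). ARO7, chorismate mutase, was lower with vector, from 45.5 and 46.3 CPM to between 36.4 and 39.6 CPM (−0.26 ± 0.08, adjusted p = 0.0184), and not with SLX5 (0.01 ± 0.08, adjusted p = 0.963). The pentafunctional ARO1 and the aminotransferase gene ARO8 passed only with SLX5 (0.19 ± 0.06 and 0.14 ± 0.06, adjusted p = 0.0206 and 0.0498), and ARO8 passed in 7 of 21 alternative settings.

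ARO3 and ARO4 encode the DAHP synthases of the entry step, inhibited by phenylalanine and by tyrosine, respectively. ARO3 was at 438 and 392 CPM in Htt-25Q-NLS [V], 355 to 405 CPM in Htt-25Q-NLS [SLX5], 360.4 to 398 CPM in Htt-103Q-NLS [V] and 361 to 406 CPM in Htt-103Q-NLS [SLX5]. It overlapped between the lengths in both settings and was not called (−0.13 ± 0.08 and 0.02 ± 0.07). ARO4 was at 554 and 514 CPM in Htt-25Q-NLS [V] and 533 to 630 CPM in Htt-103Q-NLS [V], with overlap (0.12 ± 0.08, adjusted p = 0.224). With SLX5 it stood at 443 to 464 CPM against 509 to 556 CPM and passed (0.22 ± 0.07, adjusted p = 0.0216). The per-length ratio of ARO3 to ARO4 was 0.775 ± 0.020 in Htt-25Q-NLS [V], 0.840 ± 0.036 in Htt-25Q-NLS [SLX5], 0.658 ± 0.087 in Htt-103Q-NLS [V] and 0.732 ± 0.058 in Htt-103Q-NLS [SLX5].

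Of the arginine genes some were called and others were not. ARG56 (YER069W), whose precursor protein gives acetylglutamate kinase and acetylglutamyl phosphate reductase, was higher in both comparisons. It stood at 90.1 and 67.4 CPM in Htt-25Q-NLS [V] and at 145, 134 and 124 CPM in Htt-103Q-NLS [V] (0.77 ± 0.14, adjusted p = 7.4e-04). In SLX5 cultures it was at 54.8, 60.8 and 56.4 CPM against 124, 101.3 and 134 CPM (1.07 ± 0.12, adjusted p = 6.7e-05). The ARG56 groups did not overlap in either setting. ARG2, acetylglutamate synthase, was higher by 0.49 ± 0.10 (adjusted p = 0.00138) and 0.45 ± 0.09 (adjusted p = 0.00122).

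CPA1, of carbamoyl phosphate synthesis, did not pass with vector (−0.17 ± 0.09) or SLX5 (0.10 ± 0.08). The ornithine acetyltransferase gene ARG7 and the ornithine carbamoyltransferase gene ARG3 passed only with SLX5 (0.39 ± 0.07 and 0.62 ± 0.19, adjusted p = 5.4e-04 and 0.0192). ARG1, ARG4 and ARG8, which encode argininosuccinate synthetase, argininosuccinate lyase and acetylornithine aminotransferase, passed in neither (−0.21 to 0.16, adjusted p = 0.112 to 0.412). The end steps of the pathway, ARG1 and ARG4, thus gave no call for the longer fragment, which does not show that they differ from the earlier steps.

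In histidine synthesis HIS7 was higher and HIS2 and HIS3 were lower in both comparisons. HIS7 (YBR248C), which encodes the imidazole glycerol phosphate synthase, stood at 174 and 160 CPM in Htt-25Q-NLS [V] and at 241, 231 and 202 CPM in Htt-103Q-NLS [V] (0.43 ± 0.09, adjusted p = 0.00148). HIS2 (YFR025C), histidinol phosphatase, stood at 126 and 129 CPM in Htt-25Q-NLS [V] and at 87.9, 100.2 and 102 CPM in Htt-103Q-NLS [V] (−0.40 ± 0.07, adjusted p = 8.4e-04). With SLX5 the HIS7 change was 0.38 ± 0.08 (adjusted p = 0.00167) and the HIS2 change −0.37 ± 0.07 (adjusted p = 7.9e-04). HIS5, the aminotransferase gene, passed only with SLX5 (0.37 ± 0.08, adjusted p = 0.00302). HIS1, the committing phosphoribosyltransferase, HIS4 and HIS6 were not called in either (−0.25 to 0.17).

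HIS3 (YOR202W), imidazole glycerol phosphate dehydratase, is the usual HIS marker of yeast plasmids, and the labels give both plasmids a HIS marker. For the SLX5 plasmid the strain list of the paper names HIS3 as the marker. Reads from such a copy and from the mutant chromosomal copy of W303 cannot be told apart. It stood at 1178 and 1091 CPM in Htt-25Q-NLS [V] and at 830.4, 896 and 919 CPM in Htt-103Q-NLS [V] (−0.36 ± 0.10, adjusted p = 0.0107). With the SLX5 plasmid it was at 1264, 1270 and 1357 CPM in Htt-25Q-NLS and 655, 856 and 809 CPM in Htt-103Q-NLS cells (−0.75 ± 0.09, adjusted p = 1.1e-04). No Htt-103Q-NLS library reached a Htt-25Q-NLS library. With the SLX5 plasmid the SLX5 transcript was also lower in Htt-103Q-NLS cells, at 494 to 752 CPM against 1147 to 1216 CPM. With empty vector, which holds no SLX5, it was lower there too, at 50.1 to 65.2 CPM against 94.4 to 99.6 CPM. The part of plasmid copy number in the HIS3 values was not tested.

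Threonine and isoleucine genes gave calls for 0 of 4 with vector and 1 of 4 with SLX5, where 56.8% and 53.5% of all genes were called. THR4, threonine synthase, was higher with SLX5 (0.19 ± 0.06, adjusted p = 0.0139) and at 0.15 ± 0.06 (adjusted p = 0.0639) with vector. The homoserine kinase gene THR1, the threonine deaminase gene ILV1 and the acetolactate synthase regulator ILV6 stayed between −0.04 and 0.14 and passed in neither.

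Of the 11 genes higher with vector, 5 had TGACTCA in the window, as did none of the 5 lower and 9 of the 23 not called. With SLX5 the heptamer was found in 8 of 18 higher, none of 4 lower and 6 of 17 not called. The windows of SER3, GLN1, TRP4, ARO2, HIS2 and ARG2 did not hold it. These shares are descriptions.

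**Figure D3:**
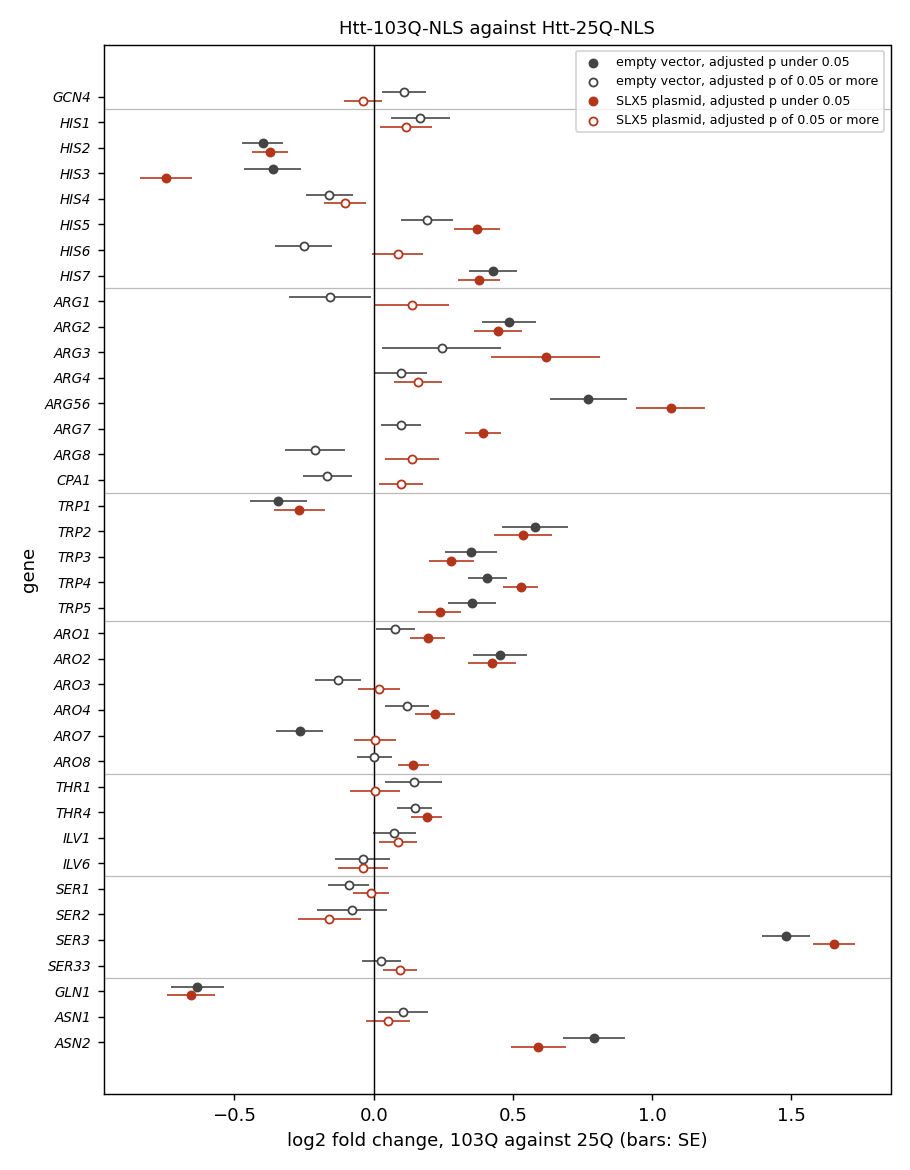
Log2 fold change (x axis) of each gene (y axis) between the Htt lengths (longer minus shorter), with empty vector (grey) and with plasmid-borne SLX5 (red). Bars are SE, and filled points had an adjusted p under 0.05. SER3 is farthest to the right in both, at 1.48 and 1.65, and farthest to the left are GLN1 with vector and HIS3 with SLX5.

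The wider pathway was read from 5 lists of other genes. In the general control and eIF2 list, 7 of 13 were higher and 1 lower with vector, with a median log2 change of 0.32, where 27.3% of all genes were higher and 29.5% lower, with a median of −0.02. GCN1, the activator of Gcn2, and the eIF2B subunit genes GCD6 and GCD1 were higher by 0.67 ± 0.08, 0.82 ± 0.10 and 0.56 ± 0.09. The kinase gene GCN2 was at 0.09 ± 0.09 and not called. In this list 3 of 13 genes had a negative value. GCN20 was among them, at a mean of 161 CPM in Htt-25Q-NLS [V] and 134 CPM in Htt-103Q-NLS [V]. Of 17 other synthesis enzymes 4 were higher and 5 lower (median −0.04). Among these GLT1, glutamate synthase, was at 1.23 ± 0.14, HOM3, aspartate kinase, at 0.60 ± 0.09, and PRO2, of proline synthesis, at −0.56 ± 0.09. Of 8 further regulators 2 were higher and 1 lower. ARG82, an inositol polyphosphate kinase that also takes part in arginine control, went from a mean of 13.3 CPM to 55.2 CPM (2.06 ± 0.20, adjusted p = 2.5e-05). ARO80, the activator of aromatic amino acid breakdown, was at −1.05 ± 0.14 and MCM1 at 0.39 ± 0.07.

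Of 8 breakdown genes 0 were higher and 7 lower with vector (median −0.58), against 27.3% and 29.5% of all genes. PUT1, proline oxidase, was at −1.43 ± 0.10, CHA1, the serine and threonine deaminase, at −0.95 ± 0.13, and ARO9, an aromatic aminotransferase, at −0.92 ± 0.11. Of 11 permease genes 3 were higher and 7 lower (median −0.36). GNP1, a glutamine permease, was at 0.75 ± 0.09, TAT2, which imports tryptophan, at −0.88 ± 0.13, and GAP1, the general permease, at −0.89 ± 0.14. With SLX5 the counts were close for the general control list (8 higher, 1 lower), the breakdown list (0 higher, 7 lower) and the permeases (3 higher, 5 lower), where 26.9% of all genes were higher and 26.6% lower.

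The plasmid comparisons asked whether SLX5 goes with a change of the same genes, in each strain and over both. In Htt-25Q-NLS cells no member passed, 35 of 39 had a negative log2 fold change and the median was −0.16, against 0.00 over all genes. An unadjusted p under 0.05 was reached by 15 members and 565 of all genes, and 0.0475% of all genes were called. In Htt-103Q-NLS cells no member passed either, 32 of 39 were negative, the median was −0.14 against 0.00, and 11 members and 1468 of all genes had an unadjusted p under 0.05. There 0.0158% of all genes were called. This comparison shares its Htt-103Q-NLS [V] cultures with the first one above, and Htt-25Q-NLS [SLX5] against Htt-25Q-NLS [V] shares its Htt-25Q-NLS [V] cultures with it. DESeq2 called 4 members and 33 of all genes in Htt-25Q-NLS cells, and 1 member and 296 of all genes in Htt-103Q-NLS cells.

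Taking the mean of the plasmid effects in both strains, 2 members were called, both lower and both of arginine synthesis, where 0.221% of all genes were called (0.127% higher and 0.0949% lower). The median was −0.15 over the members, 36 of which were negative, and 0.00 over all genes. An unadjusted p under 0.05 was reached by 23 members and 1536 of all genes. ARG1 (YOL058W), the argininosuccinate synthetase gene, stood at 566 and 427 CPM in Htt-25Q-NLS [V] and at 229, 276 and 271 CPM in Htt-25Q-NLS [SLX5]. In Htt-103Q-NLS cells it was at 466, 489 and 380.3 CPM with vector and at 320.4, 248 and 285 CPM with SLX5. Each vector library was above each plasmid library of its strain. The mean log2 fold change was −0.79 ± 0.10 (adjusted p = 0.00752), made up of −0.94 ± 0.15 (adjusted p = 0.0623) and −0.65 ± 0.13 (adjusted p = 0.117).

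ARG8 (YOL140W) stood at 76.0 and 62.4 CPM in Htt-25Q-NLS [V] and at 43.0, 44.4 and 49.7 CPM in Htt-25Q-NLS [SLX5]. It was at 62.0, 62.7 and 54.4 CPM in Htt-103Q-NLS [V] and 54.0, 46.2 and 50.6 CPM in Htt-103Q-NLS [SLX5]. The groups did not overlap in either strain, though in Htt-103Q-NLS cells the gap was under 1 CPM. The mean log2 fold change was −0.42 ± 0.07 (adjusted p = 0.0442), made up of −0.60 ± 0.11 (adjusted p = 0.0864) and −0.25 ± 0.10 (adjusted p = 0.173). This call was kept in 9 of 20 alternative settings and that of ARG1 in 17. Neither gene was called without the 4 clone a libraries, nor was any other member, and ARG1 was not called without clone a of Htt-25Q-NLS [V], which has the highest ARG1 value of all, or without clone c of Htt-103Q-NLS [SLX5].

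All 9 arginine genes had a negative mean effect, from −0.11 (CPA1) to −0.79, and 7 had an unadjusted p under 0.05. ARG3 stood at 18.8 and 11.5 CPM in Htt-25Q-NLS [V] and at 7.72, 8.95 and 10.98 CPM in Htt-25Q-NLS [SLX5], so that its groups came within 1 CPM of each other. ARG7 stood at 257 and 240.1 CPM against 178, 194 and 189 CPM in these groups (−0.41 ± 0.07, adjusted p = 0.0864). In Htt-103Q-NLS cells ARG7 was at 261, 273 and 265 CPM with vector and 251, 230.0 and 255 CPM with SLX5 (−0.12 ± 0.06, adjusted p = 0.289). The medians of the arginine genes were −0.41 in Htt-25Q-NLS and −0.14 in Htt-103Q-NLS cells. Tryptophan genes had medians of −0.15 and −0.19, and histidine genes of −0.09 and −0.14.

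**Figure D4:**
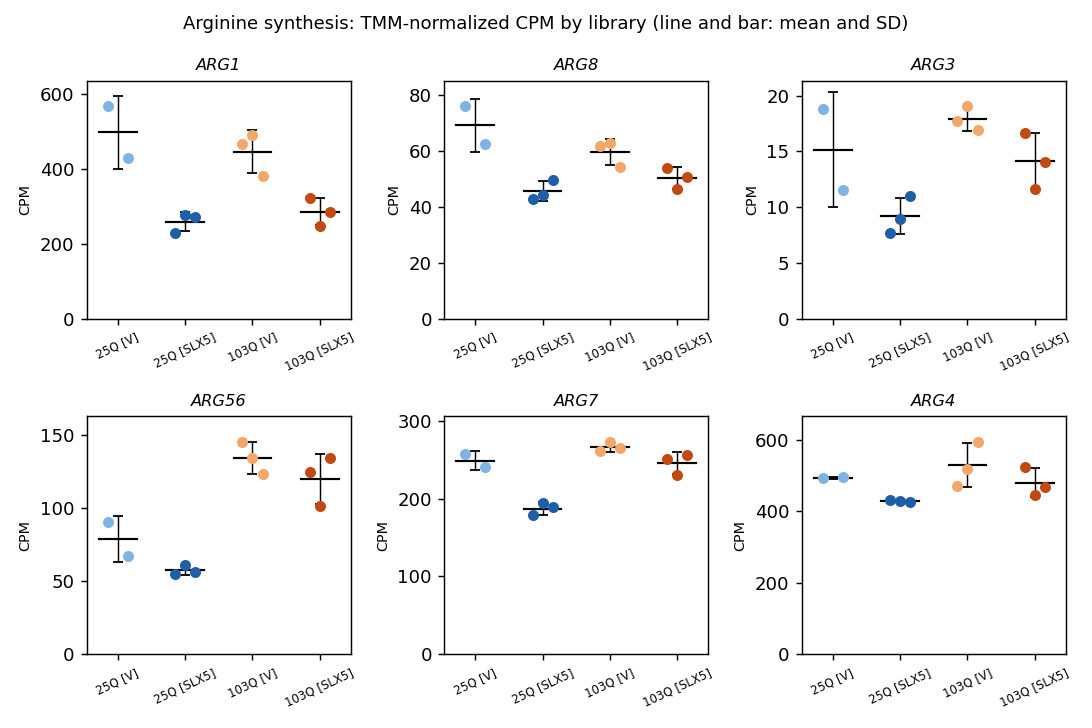
TMM-normalized CPM (y axis from 0) of 6 arginine genes in each library (points), by group (x axis), with the group mean and SD (2 libraries in Htt-25Q-NLS [V], 3 in the others). ARG1 is lower with SLX5 in both strains, while ARG56, ARG7 and ARG4 are lowest in Htt-25Q-NLS [SLX5] and overlap or nearly so between Htt-103Q-NLS [V] and Htt-103Q-NLS [SLX5].

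Outside arginine synthesis, ASN2 and THR1 had the smallest unadjusted p after ARG1 in Htt-103Q-NLS cells, at −0.31 ± 0.10 (adjusted p = 0.151) and −0.26 ± 0.09 (adjusted p = 0.155). SER3 was at −0.30 ± 0.08 (adjusted p = 0.379) in Htt-25Q-NLS and −0.13 ± 0.07 (adjusted p = 0.301) in Htt-103Q-NLS cells, far below its difference between the lengths in size. GCN4 was at 0.02 ± 0.08 and −0.13 ± 0.07. GLN1 had a positive value in both strains, 0.14 ± 0.10 and 0.11 ± 0.09, as had HIS2. HIS3 was at 0.19 ± 0.10 in Htt-25Q-NLS and −0.19 ± 0.09 in Htt-103Q-NLS cells.

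The interaction, the SLX5 effect in Htt-103Q-NLS minus that in Htt-25Q-NLS cells, is also the test of whether the length effect differs between vector and SLX5. It called 0 of 39 members and 0% of all 6321 genes, while 7 members and 348 of all genes had an unadjusted p under 0.05. Among the smallest p were those of ARG7 (0.29 ± 0.10) and HIS3 (−0.38 ± 0.14), each with an adjusted p of 0.792. Of the 9 arginine genes 8 had a positive interaction, with a median of 0.30, against 0.01 over all genes.

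**Figure D5:**
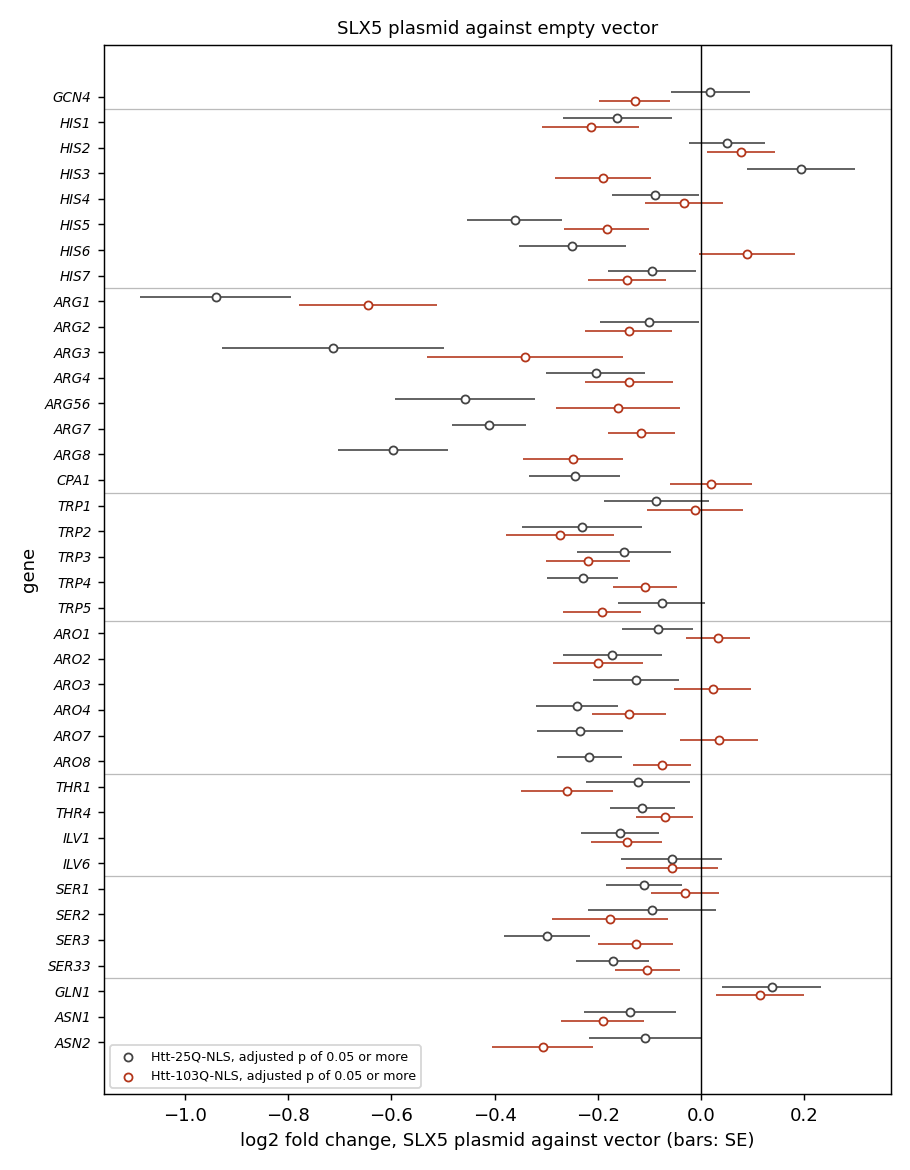
Log2 fold change (x axis) of each gene (y axis) for plasmid-borne SLX5 against empty vector, in Htt-25Q-NLS (grey) and Htt-103Q-NLS cells (red). Bars are SE, and points are open because no gene here had an adjusted p under 0.05. Most points lie left of 0, with ARG1 farthest left in both.

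Single cultures weighed on the level of the whole group. The median deviation of the 39 genes from their means over the 11 libraries was 0.11 and −0.02 on the log2 scale in Htt-25Q-NLS [V] a and b, and −0.19, −0.14 and −0.14 in Htt-25Q-NLS [SLX5]. It was 0.20, 0.15 and 0.04 in Htt-103Q-NLS [V] and 0.01, −0.02 and 0.01 in Htt-103Q-NLS [SLX5]. Over all genes the same median lay between −0.01 and 0.02 in every library. Leaving out Htt-103Q-NLS [V] c, the lowest of its group, raised the members called for SLX5 in Htt-103Q-NLS cells from 0 to 15 and for the mean over both strains from 2 to 23, all lower. The calls over all genes rose at the same time from 1 to 1647 and from 14 to 1567.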

How the data were processed

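RNA of 11 yeast cultures was sequenced from a stranded library. Per the labels and the paper's methods, the authors ran bcl2fastq 2.17, Trimmomatic 0.36, STAR 2.5.1 against the S288C annotation (EF4) and RSEM 1.2.22. The authors deposited RSEM expected counts (estimated counts, 16.5% not whole) for 7126 genes and, per library, TPM and FPKM; these deposited TPM were used to compare levels between genes, and the deposited FPKM were not used. Totals were 19942070 to 29440801, with a biological coefficient of variation of 11.0%.

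Groups were taken from the labels. Counts were rounded, filtered with filterByExpr (6321 genes), scaled by TMM and fitted with 1 mean per group in edgeR 4.0.16 (R 4.3.3, limma 3.58.1). Differences were tested with the quasi-likelihood test, and p-values were adjusted by the Benjamini-Hochberg method over all 6321 genes and called under 0.05. A log2 fold change is the first group minus the second, ± SE. Fold changes and CPM are relative to the counts of a library, scaled by TMM, and do not give amounts per cell. Simulated counts, with the same spread for every gene, were run through the test for the comparison with vector alone. They do not bear on the other comparisons.

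The members, pathways and gene lists were chosen with earlier results of these data known. Named in full were GCN4, the marker genes HIS3 and TRP1, the isozyme pairs, and per comparison up to 5 called members in each direction by smallest p (up to 3 where none was called); other members named were chosen after their values were seen, and 1 member is counted in the totals but not reported here by itself. From each other list the 3 genes with the smallest p with vector were named. GCN2 and GCN20 were named after their values were seen. Promoter windows were cut from the RefSeq R64 genome with Biopython 1.88, in place of a ready-made table; the coding length of 5999 of 6007 protein-coding genes, and of all 39 members, equalled that in the count files. Alternatives were DESeq2 1.42.0, the likelihood ratio procedure of the study, RLE size factors, no filter and a mean of at least 10 CPM, unrounded counts, robust dispersions, the compared groups alone, a replicate block, leaving out the clone a libraries, and leaving out each library. Figures used Python 3.11.15 and matplotlib 3.10.9.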

Additional observations from a re-analysis of the deposited data

How the results depend on the processing

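The alternatives were read for the members called in a comparison or, where none was called, for those with the smallest p. None of these changes turned its direction. Of the values of these members, 942 kept their side of the threshold, 66 lost it and 13 gained it. Among all 39 members some signs did turn. With vector 14 were negative in the main fit, 12 without clone a of Htt-25Q-NLS [V] and 16 without its clone b. For the interaction 14 were negative in the main fit, 9 without that clone b and 21 without the clone a libraries. SER3, ASN2, GLN1, TRP4, ARG56, HIS2, ARG2, HIS7, TRP2 and ARO2 were called with vector in all 21 alternatives, as were SRG1 and the genes of other lists given with an SE, GCN2 aside. With SLX5, MCM1 was called in 15 of 21. TRP5, TRP3, HIS3 and ARO7 were lost without the clone a libraries. Without clone b of Htt-25Q-NLS [V], TRP3 (adjusted p = 0.0683), TRP1 (0.182) and ARO7 were lost, without its clone a HIS3 (0.0856) and ARO7, and without clone a of Htt-103Q-NLS [V] ARO7 (0.0921 at most in these fits). With SLX5, leaving out clone a of Htt-25Q-NLS [SLX5] lost TRP1, TRP3, TRP5, ARO1, ARO4, ARO8, ARG3 and THR4, and ARO8 was called in 7 of 21 alternatives.

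Between the Htt lengths with vector, leaving out a Htt-103Q-NLS [V] culture gave from 15 called members (without clone b) to 22 (without clone c). The calls over all genes were 3083 and 3850. Leaving out a Htt-25Q-NLS [V] culture leaves 1 in that group, and moved the median log2 fold change of the members more. It was 0.10 in the main fit, 0.14 without clone a and 0.04 without clone b. With SLX5, leaving out Htt-25Q-NLS [SLX5] a gave 14 (2835 over all genes) and leaving out Htt-103Q-NLS [V] c gave 23 (3643 over all genes). Without the clone a libraries, the median log2 fold change with SLX5 was 0.10 over the members and −0.01 over all genes. For SLX5 in Htt-25Q-NLS cells, DESeq2 and the likelihood ratio procedure each called 4 members (33 of 6321 and 32 of 4158 genes tested, the latter with 25 members among them), and leaving out a library gave 0 to 1. In Htt-103Q-NLS cells both called 1 (296 and 302 of all genes), and leaving out a library gave 0 to 15. For the mean over both strains DESeq2 called 12 (522 of all genes), the likelihood ratio procedure 11 (494) and the fit without clone a libraries 0 (1 of 6329), and leaving out a library gave 0 to 23. The replicate block by clone letter called 1 member there. The interaction called 0 members in all 20 alternatives.

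The letters were not taken to pair the cultures in the main fit. Deviations of cultures with the same letter correlated at −0.145 to 0.210 (7 of 15 pairs over 0.1) and of other pairs at −0.227 to 0.227 (5 of 30 over 0.1). Whether the letters pair the cultures was not settled by these values, where the 2 Htt-25Q-NLS [V] cultures are mirror images. With the letters as a block, 16 members were called with vector (3500 of all genes) and 21 with SLX5 (3327). The clone a libraries also share the higher rRNA given in the report. With 2 cultures of Htt-25Q-NLS [V], leaving out either leaves 1, whose spread is then taken from the 3 other groups.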
